A study of Homo sapiens with 16 samples.

Results

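HL-60 is a human promyelocytic leukaemia line that can be differentiated in culture into neutrophil-like cells, called dHL-60 here. The comparison described was that of dHL-60 cells given 10 µg/ml lipoteichoic acid (LTA) of Staphylococcus aureus for 24 h with untreated dHL-60 cells of the same time. It was chosen by its place in the design and not by any measured value, and it took 4 of the 16 libraries of the series, 2 untreated and 2 treated. All cells were labelled as wild-type HL-60, and the sources used here do not name the agent used for differentiation. The other dHL-60 libraries were untreated or given 10 µg/ml LTA for 4 h, or given 1 µg/ml for 4 or 24 h, with 2 libraries in each of these groups. The remaining 4 libraries came from undifferentiated HL-60 cells and were not used. Each group is 1 line in 1 state, so the values hold for this line and say nothing of neutrophils from blood.

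Lipoteichoic acid is a glycolipid anchored in the membrane of Gram-positive bacteria. It is sensed by TLR2, which pairs with TLR1 or TLR6 and is loaded by CD14, and the receptor signals through the adaptor MYD88 and the IRAK kinases to the transcription factor NF-kB. Active NF-kB induces chemokines and cytokines and also its own inhibitors, and over hours to a day the response of a phagocyte widens to interferon-stimulated genes, surface receptors and metabolism.

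The deposited values were read counts per gene, and levels are given as CPM, the count of a gene divided by the library total (scaled by TMM factors) and multiplied by 1e+06. The 4 libraries held between 11890690 and 16530277 counts. The 2 libraries of each dHL-60 group differed by more than sampling noise, with chi-square values of 10.3 to 18.9 per degree of freedom over genes, so each entered as its own sample. Whether they are separate cultures is not in the labels, and the p-values rest on the spread between these libraries alone, which may be technical. Changes are log2 fold changes from edgeR's quasi-likelihood test on all 12 dHL-60 libraries, written as the value ± SE. The SE was taken as the size of the change over the square root of the test's F value. It is therefore approximate, above all for genes with few counts in a group. A gene was called where its Benjamini-Hochberg adjusted p over all genes was under 0.05. Where 2 levels are given for a group they are library 1 and library 2, in that order.

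At 24 h, 10 µg/ml LTA changed the level of 5056 of 11866 tested genes (42.6%). Of these, 2797 were higher in treated cells (23.6% of the tested genes) and 2259 were lower (19%). With upper-quartile scaling 2484 were higher and 2694 lower, so which direction held more genes depended on the scaling. The median log2 fold change of all tested genes was -0.01. In 8520 genes (71.8%) both libraries of one group lay above both of the other, so a lack of overlap was the common case and carries little weight for any 1 gene. Left-out libraries lowered these counts. Without untreated library 1, 1470 genes were called lower, and without treated library 1, 1894 were called higher.

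The labelled state was checked against marker genes. Of 14 markers of neutrophil-like cells, 8 of 13 tested ones were called higher and 0 lower in treated cells. Their summed level rose from 2480.0 and 2443 to 15102 and 13516 CPM, and most of this rise was S100A8 and S100A9. Late neutrophil markers, named here after their values were seen, differed in level. CSF3R, the receptor for granulocyte growth factor, stood at 243 and 293 CPM untreated and 208 and 214 CPM treated. CXCR2, a chemokine receptor of mature neutrophils, stood at 20.5 and 22.7 CPM untreated and 13.5 and 17.6 CPM treated. Over the 4 libraries FCGR3B ran from 0.423 to 1.22 CPM and MME from 0.169 to 0.808 CPM. ALPL ran from 0 to 0.0735 CPM and CEACAM8 from 0.837 to 1.47 CPM, and all of these were near 0. In CSF3R, CXCR2, FCGR3B, MME and CEACAM8 both treated levels lay below both untreated ones, but none was called. Markers of the promyelocyte, the stage from which the line was derived, summed to 16820.0 and 21925 CPM in untreated and 4834 and 5953 CPM in treated cells, and all 6 were called lower. These are bulk libraries, in which fewer cells of a type and less RNA per cell cannot be told apart.

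Markers of other cell types moved as well. Macrophage markers summed to 24.0 and 24.2 CPM untreated and 124 and 144 CPM treated. Nearly all of this sum was CSF1R and C1QA, while 7 of 9 macrophage markers, among them CD163, MRC1, MARCO and MSR1, stayed under 1 CPM in every library. In a longer list of 20 macrophage genes only 9 had enough counts to test, and 8 of these were called higher. Genes near 0 in untreated cells could only be called higher. Exon bases of CD68 are shared to 85.8% with other annotated genes, so its level near 0 is uncertain. Lymphocyte markers summed to 11.6 and 10.6 CPM and 294 and 212 CPM, nearly all of it NKG7, with 6 of 8 under 1 CPM throughout and CD3D and CD8A at 0. Dendritic cell markers summed to 10.2 and 11 and 42.5 and 26.7 CPM, eosinophil and basophil markers to 30.1 and 29.4 and 17.4 and 25.7 CPM, and red cell and platelet markers to 1.81 and 1.76 and 5.67 and 7.6 CPM. The dendritic rise was mostly CLEC10A and LAMP3, while CD1C did not rise and CLEC9A was at 0. The part of the markers of other cell types in the results was not tested.

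The genes with the largest rises started near 0. SERPINB9, an inhibitor of granzyme B, KYNU, a kynureninase of tryptophan breakdown, and TNIP3, an inhibitor of NF-kB signalling, had 0 counts in both untreated libraries. In treated cells SERPINB9 stood at 11.5 and 7.95 CPM, KYNU at 7.11 and 7.11 CPM and TNIP3 at 7.2 and 6.13 CPM. Against a floor of 3 counts over the untreated group these levels were at least 103-fold, at least 76.8-fold and at least 71.4-fold higher. IL7R, the receptor chain for interleukin-7, had 2 counts in the untreated pair and stood at 12.8 and 25.4 CPM in the treated one, a ratio of 319.6-fold (95% interval 88.0 to 2646). CD274, which encodes the checkpoint ligand PD-L1, stood at 0.106 and 0.0735 CPM untreated and at 17.4 and 11 CPM treated, a ratio of 150.3-fold (95% interval 51.0 to 732). The ion channel gene MCOLN2, the keratin gene KRT7 and the prostacyclin receptor gene PTGIR had 2 untreated counts each and ratios of 171-fold (95% interval 46.9 to 1419), 161-fold (95% interval 44.1 to 1337) and 110.2-fold (95% interval 30.1 to 917). For these 5 genes the intervals are wide, since they rest on so few untreated reads.

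JAK3, the kinase of the common gamma chain receptors, was among the 12 largest rises. Its level was 0.426 and 0.367 CPM untreated and 61.5 and 57.0 CPM treated, a log2 fold change of 7.17 ± 0.31 (adjusted p = 6.31e-09). SLAMF8, a surface receptor of the SLAM family, stood at 0.586 and 0.147 CPM and then 82.7 and 46.4 CPM, a log2 fold change of 7.30 ± 0.56, and 69.0% of its exon bases are shared with other genes. CCL7, a monocyte-attracting chemokine, stood at 0.160 and 0.0735 CPM untreated and 16.2 and 22 CPM treated, and the carboxylesterase CES1 at 0.852 and 0.588 and 99.0 and 73.7 CPM. In each of these 4 genes both treated libraries lay far above both untreated ones. Pairs without overlap were a condition for the 12 largest rises, so the separation itself adds no weight.

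The 12 largest falls were likewise taken among genes whose pairs did not overlap. They had at least 5 CPM in the higher group, so genes that fell from lower levels are not among them. KIT, the receptor for stem cell factor, fell from 71.8 and 71.9 CPM to 6.27 and 9.55 CPM, a log2 fold change of -3.17 ± 0.21 (adjusted p = 8.97e-08). PRTN3, the granule protease proteinase 3, fell from 854 and 1123 to 88.3 and 119 CPM, a change of -3.25 ± 0.39. PLD4, a nuclease of the endolysosome, fell from 6.71 and 6.61 to 0.254 and 0.279 CPM, a change of -4.59 ± 0.38. The treated levels of these 3 genes lay far below both untreated levels, where the choice had required that the pairs not overlap. NOG, an antagonist of bone morphogenetic proteins, SDK2, an adhesion molecule, and MUC19, a mucin, fell with log2 fold changes of -4.18 ± 0.44, -3.94 ± 0.36 and -3.41 ± 0.38. DEPTOR, an inhibitor of the kinase mTOR, fell from 14.4 and 14.2 to 1.36 and 1.81 CPM, a change of -3.15 ± 0.32. The phospholipid flippase ATP8A1, LINC00426, ANO7, CGREF1 and AMIGO1 completed the 12 largest falls, with log2 fold changes from -2.79 ± 0.39 for ATP8A1 to -2.55 ± 0.34 for AMIGO1.

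**Figure D1:**
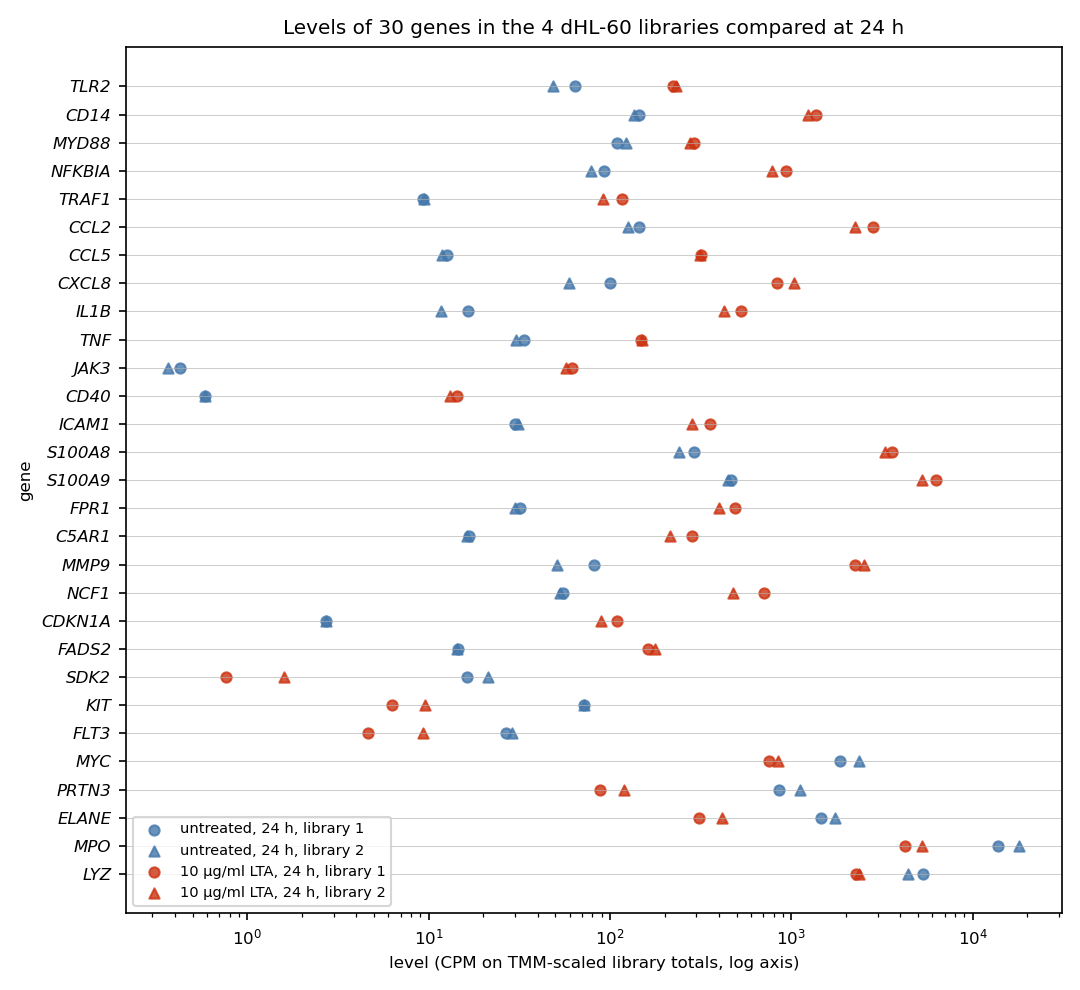
Levels of 29 genes in the 2 untreated and 2 treated dHL-60 libraries at 24 h, with CPM on a log axis, circles for library 1 and triangles for library 2. Both treated libraries lie to the right of both untreated ones from TLR2 to FADS2 and to the left from SDK2 to LYZ, as for MPO at 13738 and 18122 CPM untreated and 4234 and 5239 CPM treated.

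Several called genes had high counts in both groups. ACTB, cytoplasmic actin, stood at 10419.6 and 10558 CPM untreated and 30696 and 29092 CPM treated, a log2 fold change of 1.51 ± 0.16 (adjusted p = 7.49e-06). FTL, the ferritin light chain, rose from 6889 and 7964 to 16256 and 13276 CPM, a change of 0.99 ± 0.17. LCP1, the actin bundler L-plastin, and ARHGDIB, an inhibitor of small GTPases, rose with changes of 1.19 ± 0.15 and 0.87 ± 0.15. P4HB, a protein disulfide isomerase, fell from 4457 and 5116 to 2741 and 2929 CPM, a change of -0.76 ± 0.16, and SRGN, the granule proteoglycan serglycin, fell from 3301 and 2603 to 1012 and 1609 CPM, a change of -1.17 ± 0.23. The groups did not overlap in any of these 6 genes. Smaller changes rested on single libraries. TMSB4X, thymosin beta 4 (0.73 ± 0.19), was called, but not without untreated library 1. The ribosomal protein gene RPS3A (-0.66 ± 0.18, but -0.42 without untreated library 1) was called, but not without untreated library 1. RPL3 (-0.57 ± 0.16), of the large ribosomal subunit, was called, but not without treated library 2 or untreated library 1. PTMA, prothymosin alpha (-0.50 ± 0.16), was called, but not without treated library 1 or untreated library 2, the chaperone CALR (-0.52 ± 0.17) was called, but not without treated library 1 or 2 or untreated library 2, and the RNA-binding protein HNRNPA1 (-0.38 ± 0.13) was called, but not without any 1 of the 4 libraries.

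Receptor genes for bacterial ligands were mostly higher. The list held those for LTA and also receptors for other ligands, such as TLR4, LY96 and TLR8. Of its 7 tested genes, 6 rose and 1 fell, with a median log2 fold change of 1.84. TLR2 stood at 63.8 and 48.4 CPM untreated and 223 and 232 CPM treated, a log2 fold change of 2.02 ± 0.16 (adjusted p = 6.58e-07). CD14, the coreceptor that hands lipoproteins and LTA to TLR2, stood at 145 and 136 CPM untreated and 1375 and 1232 CPM treated, a change of 3.21 ± 0.16 (adjusted p = 1.48e-08). Treated levels of both genes were above untreated ones in both libraries. The partner receptors TLR1 and TLR6 rose less, from 13.8 and 11.8 to 28.0 and 40.3 CPM (1.42 ± 0.20) and from 13.9 and 12 to 25.6 and 31.9 CPM (1.15 ± 0.20). TLR8, an endosomal receptor for single-stranded RNA, rose from 14.9 and 15.5 to 54.1 and 54.9 CPM (1.84 ± 0.22). TLR4, the receptor for lipopolysaccharide, fell from 79.2 and 77.5 to 44.6 and 50.7 CPM (-0.72 ± 0.14), while its partner LY96, which was low, rose from 0.958 and 0.735 to 3.90 and 3.83 CPM (2.16 ± 0.33).

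Behind the receptors the picture was mixed. MYD88 rose from 109.6 and 123 to 292 and 276 CPM, a log2 fold change of 1.29 ± 0.15, and IRAK2, a kinase of the MYD88 complex, from 1.22 and 0.588 to 24.4 and 22.8 CPM, a change of 4.62 ± 0.33. IRAK1, IRAK4, TRAF6, MAP3K7 and TIRAP, which carry the signal onwards, did not pass the test, with log2 fold changes of -0.24 ± 0.14, 0.08 ± 0.12, -0.31 ± 0.13, -0.03 ± 0.14 and 0.25 ± 0.18. The remaining 4 of the 11 adaptors and kinases were called higher, with calls that rested on single libraries. The count of 6 called higher was 3 without untreated library 2 or treated library 1. MAP3K8 (0.83 ± 0.23) was called, but not without untreated library 2. TICAM1 (1.20 ± 0.30) was called, but not without treated library 1 or untreated library 1. IRAK3, the kinase-dead IRAK (0.52 ± 0.16), was called, but not without treated library 1 or 2 or untreated library 2. TAB2 (0.45 ± 0.17) was called, but not without any 1 of the 4 libraries or with upper-quartile scaling.

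Nearly all of the NF-kB list was higher. Of 22 tested members, 20 rose and 0 fell, with a median log2 fold change of 1.98 against -0.01 over all tested genes. Among the DNA-binding subunits NFKB2 rose from 62.9 and 56.3 to 391 and 292 CPM (2.52 ± 0.23) and RELB from 19.5 and 15.5 to 101 and 70.5 CPM (2.29 ± 0.27), the pair of the alternative pathway. NFKB1 rose by 0.91 ± 0.13. REL did not pass the test, at 12.1 and 12.5 CPM untreated and 10.2 and 12.3 CPM treated (-0.12 ± 0.27), and RELA (0.83 ± 0.20, but 0.52 without treated library 1) was called, but not without treated library 1 or untreated library 1.

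Of the IkB proteins, a family that holds inhibitors of NF-kB, all 6 tested rose, and of the feedback genes 10 of 11. NFKBIA, the inhibitor IkB-alpha, rose from 92.6 and 78.5 to 933 and 778 CPM, a log2 fold change of 3.32 ± 0.29 (adjusted p = 1.36e-06). NFKBIZ, a nuclear IkB protein, rose from 1.49 and 0.588 to 41.4 and 41.3 CPM (5.22 ± 0.41), and BCL3 from 17.8 and 16.5 to 135 and 97.2 CPM (2.75 ± 0.26). NFKBIE, NFKBID and NFKBIB rose by 1.56 ± 0.20, 1.45 ± 0.22 and 1.01 ± 0.20. Of the feedback genes, TRAF1, a survival adaptor, rose from 9.37 and 9.48 to 116 and 91.5 CPM (3.46 ± 0.21), and the RNase ZC3H12A, which degrades cytokine transcripts, from 17.1 and 20.6 to 167 and 131 CPM (2.99 ± 0.23). The ubiquitin editor TNFAIP3 (A20), its partner TNIP1 and SOD2, mitochondrial superoxide dismutase, rose by 2.58 ± 0.30, 2.01 ± 0.21 and 2.60 ± 0.23. Both treated libraries were above both untreated ones in each of these genes. BIRC2 was the feedback gene that did not pass the test (-0.03 ± 0.16), while its relative BIRC3 rose by 1.96 ± 0.22.

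To show the sequence beside these values, promoters of RefSeq (GRCh38.p14) were searched for the kB motif on both strands from 250 bases before to 50 bases after the start of each gene. The motif was present in 25.6% of all 35116 promoters and in 30.7% of those of tested genes. It was present in 25 of 39 promoters of the NF-kB list (64.1%), which had 20 of its 22 tested genes in the promoter table, and in 6 of 7 promoters of CXC chemokines. In the CC chemokine list, of which every tested gene rose, 4 of 13 promoters held it (30.8%). In the primary granule list, of which most genes fell, 8 of 14 promoters did (57.1%). Most of these 8 were promoters of CD63, the member that rose, so the share does not describe the genes that fell. A match is a run of letters and not a measured binding site. The 250 bases before the start are shown for 3 CXC chemokines and for 3 of the genes with the largest rises, as examples of both groups, with the matched letters in capitals. The CXCL2 window is chr4:74099196-74099445 (minus strand), that of CXCL3 chr4:74038690-74038939 (minus strand), that of CXCL6 chr4:73836428-73836677 (plus strand), that of TNIP3 chr4:121227484-121227733 (minus strand), that of JAK3 chr19:17847983-17848232 (minus strand) and that of IL7R chr5:35856641-35856890 (plus strand).
CXCL2: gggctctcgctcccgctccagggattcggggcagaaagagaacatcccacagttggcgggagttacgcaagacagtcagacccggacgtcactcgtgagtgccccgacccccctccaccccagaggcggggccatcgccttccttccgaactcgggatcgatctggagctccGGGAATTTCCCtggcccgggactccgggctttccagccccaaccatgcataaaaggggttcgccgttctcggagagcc
CXCL3: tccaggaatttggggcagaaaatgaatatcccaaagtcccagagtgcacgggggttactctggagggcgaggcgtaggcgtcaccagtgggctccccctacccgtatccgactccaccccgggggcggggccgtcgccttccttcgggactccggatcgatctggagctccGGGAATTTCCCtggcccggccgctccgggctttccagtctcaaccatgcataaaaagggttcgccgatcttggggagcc
CXCL6: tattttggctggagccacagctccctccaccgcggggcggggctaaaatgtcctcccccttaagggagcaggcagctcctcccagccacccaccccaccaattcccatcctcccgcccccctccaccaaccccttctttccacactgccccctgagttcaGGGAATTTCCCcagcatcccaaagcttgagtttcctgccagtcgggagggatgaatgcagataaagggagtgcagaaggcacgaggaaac
TNIP3: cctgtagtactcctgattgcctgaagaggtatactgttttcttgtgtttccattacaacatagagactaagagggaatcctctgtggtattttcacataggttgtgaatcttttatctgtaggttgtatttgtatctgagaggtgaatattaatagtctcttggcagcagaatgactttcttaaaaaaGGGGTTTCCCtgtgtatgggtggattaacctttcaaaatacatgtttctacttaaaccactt
JAK3: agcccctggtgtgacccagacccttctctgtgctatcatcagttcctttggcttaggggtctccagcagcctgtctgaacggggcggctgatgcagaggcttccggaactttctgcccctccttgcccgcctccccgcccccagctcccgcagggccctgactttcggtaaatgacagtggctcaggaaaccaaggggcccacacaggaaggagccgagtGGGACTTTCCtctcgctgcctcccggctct
IL7R: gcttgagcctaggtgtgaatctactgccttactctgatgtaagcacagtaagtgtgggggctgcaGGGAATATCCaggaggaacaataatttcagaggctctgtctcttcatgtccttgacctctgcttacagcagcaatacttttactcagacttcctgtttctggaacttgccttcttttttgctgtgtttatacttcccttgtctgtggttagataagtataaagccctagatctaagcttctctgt
In CXCL2, CXCL3 and CXCL6 the capitals are the same 11 letters, which hold 2 overlapping matches, and the match nearest the start begins 77, 78 and 89 bases before it. TNIP3, JAK3 and IL7R hold 1 match each, which begins 62, 30 and 185 bases before the start.

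Of 19 CC chemokines, 14 had enough counts to test. Every tested one rose, 14 of 14, with a median log2 fold change of 4.78. Members near 0 in untreated cells, such as CCL8, could only be called higher. CCL2, an attractant of monocytes chosen after its values were seen, stood at 145 and 125 CPM untreated and 2824 and 2246 CPM treated, a change of 4.23 ± 0.27 (adjusted p = 6.99e-08). CCL5, which attracts T cells and monocytes, rose from 12.7 and 11.9 to 318 and 314 CPM (4.68 ± 0.17, adjusted p = 2.97e-09). CCL3, an attractant of monocytes and T cells, rose from 4.21 and 2.50 to 165 and 118 CPM (5.36 ± 0.49). CCL3 shares 74.6% of its exon bases with other annotated genes, and reads of CCL3L3 and CCL4L2, near-identical copies of CCL3 and its neighbour, may be split among them. Other members rose with wide spread within the pairs: CCL1 stood at 1.60 and 0.0735 CPM untreated and 104 and 49.7 CPM treated (6.35 ± 0.58, but 9.84 without untreated library 1), and CCL24 at 2.82 and 0.220 and 141 and 46.1 CPM (5.79 ± 0.99). CCL8 was at 0 untreated and at 1.78 and 1.39 CPM treated, at least 16.9-fold higher.

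Of 13 CXC chemokines, which mostly attract neutrophils, 8 had enough counts to test. Of these 8, 7 rose, with a median log2 fold change of 4.57. CXCL8 (interleukin-8) stood at 99.8 and 59.4 CPM untreated and 836 and 1029 CPM treated (3.55 ± 0.37, adjusted p = 6.11e-06). CXCL3 rose from 0.639 and 0.588 to 21.6 and 18.5 CPM (5.0 ± 0.37), CXCL2 from 0.586 and 0.441 to 17.3 and 12.4 CPM (4.79 ± 0.39) and the scavenger chemokine CXCL16 from 1.70 and 1.69 to 45.7 and 36.1 CPM (4.58 ± 0.20). The treated pair was above the untreated pair in each. CXCL6 stood at 0.266 and 0 CPM untreated and 5.34 and 4.60 CPM treated (4.92 ± 0.55, but 8.90 without untreated library 1). CXCL5, with 2 untreated counts, stood at 1.36 and 1.95 CPM, a ratio of 27.2-fold (95% interval 7.11 to 232). CXCL10, the interferon-induced member, was under 0.1 CPM in all 4 libraries and was not called.

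Of the cytokine genes, 21 of 30 tested members rose and 1 fell, and the first count was 13 without treated library 1. IL1B, the central cytokine of the inflammasome route, rose from 16.5 and 11.8 to 528 and 425 CPM, a log2 fold change of 5.07 ± 0.36 (adjusted p = 2.01e-07), and its sister IL1A from 1.60 and 1.03 to 27.4 and 22 CPM (4.18 ± 0.35). IL1RN, the receptor antagonist that blocks both, rose from 21.1 and 17.3 to 239 and 234 CPM (3.62 ± 0.32). EBI3, a subunit shared by interleukins 27 and 35, rose from 2.08 and 1.54 to 178 and 118 CPM (6.32 ± 0.29). The treated and untreated pairs of these genes did not overlap. TNFSF13B, the B cell factor BAFF, was the member that fell, from 58.3 and 44.5 to 24.3 and 33.7 CPM (-0.83 ± 0.17). CSF3, the granulocyte growth factor, was at 0 untreated and stood at 0.508 and 0.558 CPM, at least 5.78-fold higher, and IL36G, also at 0 untreated, was called, but not without treated library 1 or untreated library 1 or 2, with upper-quartile scaling, with the replicate block or with the crossed block.

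Receptors for cytokines rose broadly. Of 31 tested genes of this list 27 rose and 0 fell, with a median log2 fold change of 1.62. Beside JAK3 and IL7R, the common gamma chain group held IL21R, which rose from 4.10 and 3.75 to 37.8 and 42.7 CPM (3.35 ± 0.18), and IL4R, chosen after its values were seen, which rose from 35.6 and 38.8 to 187 and 184 CPM (2.32 ± 0.12). Its shared chain IL2RG is counted over exons of which 50.8% are shared with other genes and was not described further. CD40, a costimulatory receptor of the TNF receptor family, rose from 0.586 and 0.588 to 14.3 and 13.1 CPM (4.52 ± 0.26), and TNFRSF9 (4-1BB) from 5.70 and 3.01 to 109 and 95.6 CPM (4.52 ± 0.26). The treated pairs of these 4 genes lay wholly above the untreated ones.

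Receptors that steer phagocytes to bacteria and complement rose too, 10 of 15 tested, while 1 fell. FPR1, the receptor for bacterial formyl peptides, rose from 32.1 and 29.9 to 486 and 399 CPM (3.83 ± 0.20, adjusted p = 1.51e-08), and FPR2 from 60.2 and 59.1 to 368 and 336 CPM (2.56 ± 0.20). The anaphylatoxin receptors C5AR1 and C3AR1 rose from 16.7 and 16.2 to 284 and 216 CPM and from 12.4 and 8.96 to 182 and 169.8 CPM (3.92 ± 0.18 and 4.03 ± 0.18). CCRL2, a chemerin-binding receptor, rose by 3.91 ± 0.30. All treated levels of these genes were above the untreated ones. The leukotriene receptor LTB4R was the member called lower (-0.41 ± 0.13), and was called, but not without treated library 1 or 2 or untreated library 2.

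Interferon-stimulated genes were higher at 24 h. Of 38 tested members 29 rose and 0 fell, with a median log2 fold change of 1.28. Most of them stayed at low levels. GBP2, an interferon-induced GTPase, rose from 0.958 and 0.955 to 26.3 and 33.3 CPM (4.95 ± 0.27), and GBP5, at 0 untreated, stood at 1.95 and 2.44 CPM, at least 23.9-fold higher. SOCS3, which limits JAK signalling, rose from 0.479 and 1.10 to 38.2 and 44.2 CPM (5.77 ± 0.48), and SOCS1 from 0.106 and 0.220 to 4.07 and 1.67 CPM (4.09 ± 0.74). The treated pairs of these genes were above the untreated ones. GBP1 and GBP4, both at 0 untreated and under 0.4 CPM treated, were called on few reads. GBP1 was called, but not without untreated library 1, and GBP4 was called, but not without treated library 2 or untreated library 1 or 2.

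**Figure D2:**
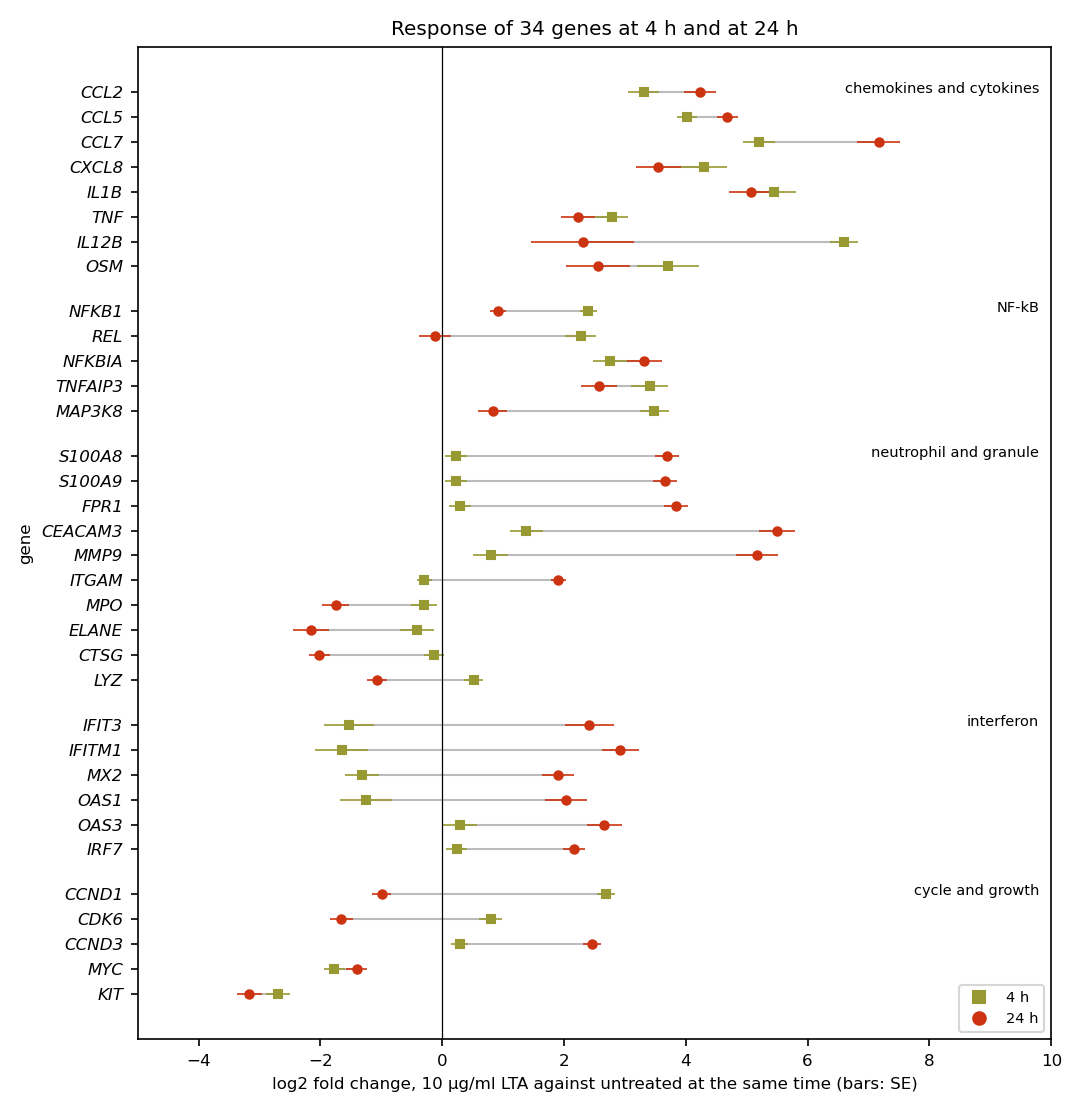
Log2 fold changes of 34 genes under 10 µg/ml LTA at 4 h (squares) and at 24 h (circles), each against untreated libraries of the same time, with bars for the SE and a grey line joining the times. For the neutrophil and granule genes and the interferon genes the 24 h circles lie far from the 4 h squares, as for S100A8 at 0.23 ± 0.18 and 3.69 ± 0.20. Among the plotted genes of all the figures, CCL2, TNF, OSM, IFIT3, IFITM1, MX2, OAS1, OAS3, IRF7 and CCND1 were chosen after their values were seen.

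The letters of an interferon-stimulated response element, on either strand, were present in 20 of 37 promoters of this list (54.1%) and in 3.57% of all promoters of the table. Of the cytokine list 8 of 35 promoters held them (22.9%), and of the NADPH oxidase list 2 of 3. The window of IFITM3, a restriction factor against viral entry chosen after its values were seen, is shown because it holds 2 such matches in capitals, the nearer one beginning 35 bases before the start. It lies at chr11:320861-321110 (minus strand).
IFITM3: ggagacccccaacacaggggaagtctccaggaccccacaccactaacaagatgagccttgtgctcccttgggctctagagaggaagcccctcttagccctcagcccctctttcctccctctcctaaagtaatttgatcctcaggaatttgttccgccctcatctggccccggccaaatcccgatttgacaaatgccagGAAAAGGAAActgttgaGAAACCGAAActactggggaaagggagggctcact
IFITM3 was low, at 0.213 and 0.882 CPM untreated and 2.46 and 2.09 CPM treated, with a log2 fold change of 2.14 ± 0.56, but 1.35 without untreated library 1 and 3.35 without untreated library 2 (adjusted p = 0.00749), and was called, but not without untreated library 1.

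Antigen presentation genes were taken by class. Of 14 tested class I genes, 5 rose and 0 fell, and the first count was 3 without untreated library 2 and 2 without treated library 1. The main class I chains did not pass the test: HLA-B stood at 2471 and 2482 CPM untreated and 2889 and 2677 CPM treated (0.17 ± 0.16), and B2M, their light chain, at 5086 and 4048 and 4939 and 4399.8 CPM (0.03 ± 0.16). HLA genes are near-identical in part and their counts are uncertain. TAPBP, which loads peptides, rose from 170.4 and 163 to 367 and 269 CPM (0.93 ± 0.20), and HLA-F from 1.12 and 1.10 to 4.32 and 3.0 CPM (1.70 ± 0.30). HLA-E (0.48 ± 0.14) was called, but not without treated library 1 or 2 or untreated library 1. The peptide transporter TAP1 (0.49 ± 0.13) and the immunoproteasome subunit PSMB9 (0.79 ± 0.23) were called, but not without treated library 1 or untreated library 2. Class II genes were mostly too low to test, with 3 of 10 tested, and the invariant chain gene CD74 rose from 10.3 and 10.9 to 32.4 and 20.7 CPM (1.32 ± 0.23). HLA-DMA (0.93 ± 0.29) was called, but not without any 1 of the 4 libraries or by DESeq2.

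By contrast, 10 of 12 tested costimulatory and checkpoint genes rose. ICAM1, the ligand of leukocyte integrins, rose from 30.02 and 31.1 to 355 and 282 CPM (3.38 ± 0.29, adjusted p = 1.03e-06). SLAMF7 rose from 0.160 and 0.147 to 22.4 and 9.55 CPM (6.59 ± 0.70), CD58, the ligand of CD2, from 12.5 and 9.77 to 27.6 and 33.0 CPM (1.44 ± 0.21), and CD86 from 78.5 and 76.9 to 147 and 145 CPM (0.91 ± 0.11). In these genes the 2 groups were fully separated. ICOSLG rose by 1.19 ± 0.18. CD80, with 1 untreated count, stood at 2.03 and 0.837 CPM, a ratio of 44.6-fold (95% interval 7.51 to 1810.0). CD83 (1.13 ± 0.36) was called, but not without treated library 1 or untreated library 1 or 2, and LGALS9, the member called lower (-0.48 ± 0.18), was called, but not without treated library 2 or untreated library 1 or 2.

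Transcription factors of the immediate early class were still high after a day. Of 29 tested genes 24 rose and 0 fell (median log2 fold change 1.70). EGR3 rose from 0.0532 and 0.294 to 6.69 and 13.5 CPM (5.95 ± 0.92), the stress gene IER3 from 2.61 and 2.13 to 81.7 and 61.9 CPM (4.90 ± 0.34), and MAFF from 2.24 and 1.25 to 43.2 and 26.6 CPM (4.27 ± 0.34). PIM1, a survival kinase, rose from 14.9 and 14.0 to 181 and 200.3 CPM (3.72 ± 0.17). EGR2 and ATF3, the latter a repressor of cytokine genes, rose by 3.70 ± 0.70 and 3.27 ± 0.49. The treated pair was above the untreated pair in all of these genes.

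Genes of cholesterol synthesis rose along the pathway. Animal cells make cholesterol from acetyl-CoA by way of mevalonate and squalene, and the SREBP factors switch the enzymes on when sterols run low. Of 29 tested members 26 rose and 0 fell, with a median log2 fold change of 1.44. Of the mevalonate steps 8 of 9 rose, and of the steps from squalene to cholesterol 11 of 11.

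HMGCS1, the first committed enzyme, rose from 116 and 102 to 381 and 552 CPM (2.09 ± 0.38). Further on, MVD rose from 27.8 and 29.7 to 146 and 144 CPM (2.33 ± 0.17, adjusted p = 3.20e-07) and FDPS, which makes farnesyl diphosphate, from 166 and 167 to 600.0 and 510.4 CPM (1.74 ± 0.14). MVK, IDI1 and FDFT1 rose by 2.1 ± 0.38, 1.15 ± 0.21 and 1.14 ± 0.28, and PMVK was the mevalonate step that did not pass the test (0.25 ± 0.19). ACAT2 rose by 2.28 ± 0.18, with 52.3% of its exon bases shared with other genes.

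After squalene, SQLE rose from 39.4 and 39.8 to 91.2 and 134 CPM (1.51 ± 0.32) and LSS, which closes the sterol rings, from 95 and 106 to 433 and 392 CPM (2.04 ± 0.18, adjusted p = 1.16e-06). MSMO1 rose by 2.0 ± 0.36, HSD17B7 by 1.70 ± 0.18, EBP by 1.58 ± 0.19, TM7SF2 by 1.34 ± 0.19 and NSDHL by 1.07 ± 0.18. DHCR7, a late reductase, rose from 72.2 and 86.9 to 269.8 and 239 CPM (1.68 ± 0.17). All these treated levels were above the untreated ones. SC5D (1.18 ± 0.29) was called, but not without untreated library 2. CYP51A1 (1.19 ± 0.42, but 0.73 without treated library 2 and 0.64 without untreated library 1 and 1.94 without untreated library 2), with 83.2% of its exon bases shared, was called, but not without treated library 2 or untreated library 1 or by DESeq2.

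Sterol regulators and uptake genes followed. SREBF2, which encodes the main regulator of cholesterol genes, rose from 199 and 236 to 476 and 446 CPM (1.08 ± 0.14), and SREBF1 from 57.9 and 74.8 to 140.3 and 141 CPM (1.09 ± 0.15). INSIG1, which holds SREBP in the endoplasmic reticulum, rose by 1.5 ± 0.25 and the sterol carrier STARD4 by 1.44 ± 0.27, and NPC1 by 0.90 ± 0.19. SCAP and NPC2 did not pass the test (-0.13 ± 0.14 and 0.47 ± 0.18), and INSIG2 (0.66 ± 0.17) was called, but not without treated library 2.

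The sterol regulatory element, searched on both strands, is rare: 16 of all promoters of the table held it (0.0456%), and of 30 promoters of this list 1 did. That promoter belongs to SREBF2 itself, shown here with the element in capitals beginning 134 bases before the start, at chr22:41832855-41833104 (plus strand).
SREBF2: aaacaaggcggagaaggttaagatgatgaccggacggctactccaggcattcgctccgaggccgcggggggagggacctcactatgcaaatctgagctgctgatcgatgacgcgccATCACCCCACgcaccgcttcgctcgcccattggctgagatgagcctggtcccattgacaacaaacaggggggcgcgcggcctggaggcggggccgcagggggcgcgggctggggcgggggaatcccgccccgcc
These exact letters are only 1 form of the element. They were also present in 1 of 13 promoters of the CC chemokine list (7.69%), a promoter of CCL24.

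**Figure D3:**
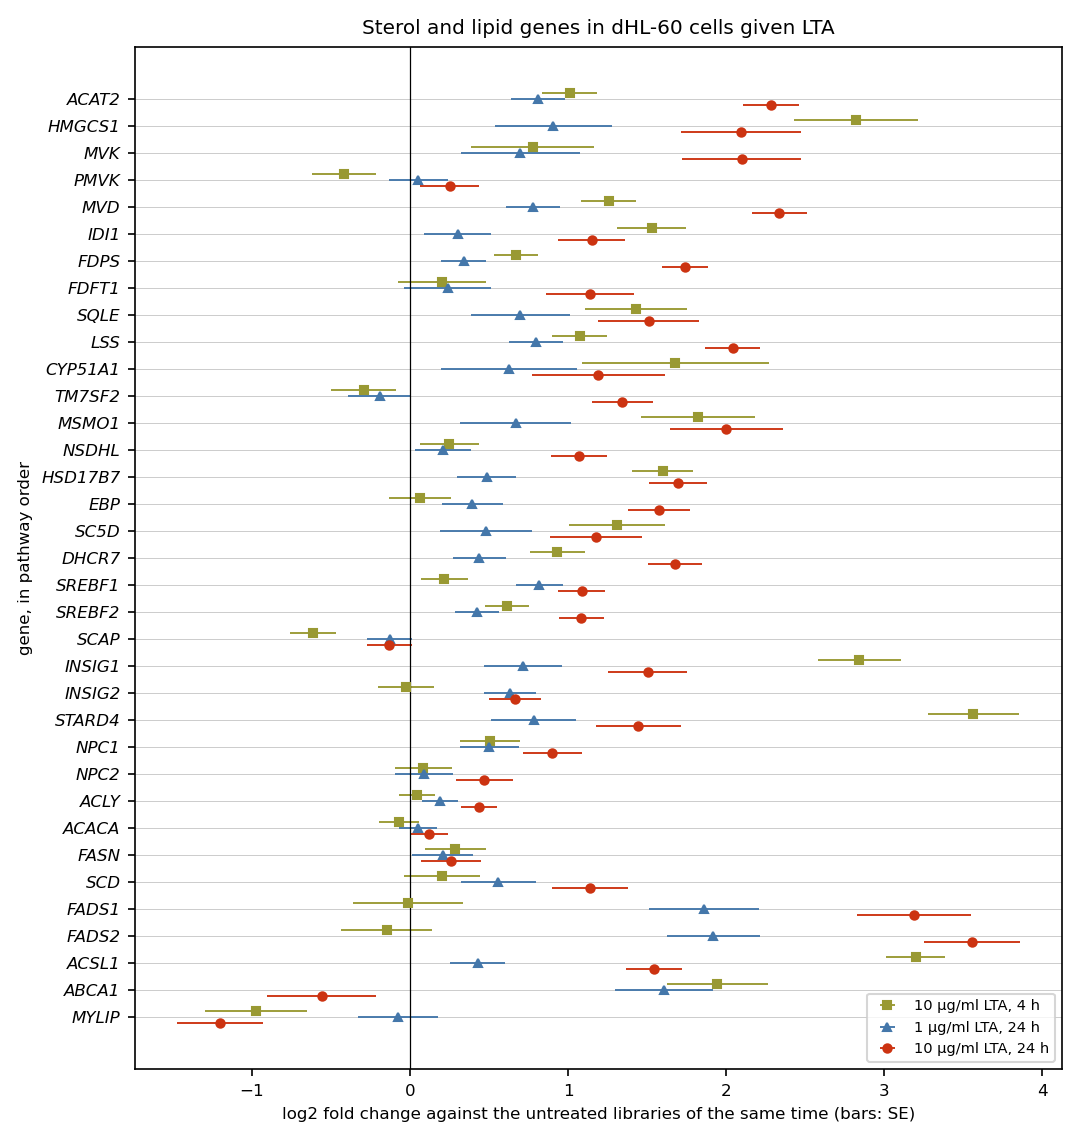
Log2 fold changes (points) with SE (bars) of 35 sterol and lipid genes in pathway order, for 10 µg/ml LTA at 4 h, 1 µg/ml at 24 h and 10 µg/ml at 24 h, each against untreated libraries of the same time. At 24 h most synthesis genes lie further right at 10 than at 1 µg/ml, as for FDPS at 1.74 ± 0.14 and 0.34 ± 0.14, while ABCA1 lies to the left at -0.56 ± 0.34 against 1.61 ± 0.31.

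Fatty acid genes were mostly called higher. FADS1 and FADS2, the desaturases of polyunsaturated fatty acids, rose from 19.0 and 22.8 to 167 and 212 CPM (3.19 ± 0.36) and from 14.6 and 14.3 to 162 and 178 CPM (3.55 ± 0.30, adjusted p = 1.09e-06). SCD, which desaturates stearate, rose from 342 and 355 to 701 and 836 CPM (1.14 ± 0.24), and ACSL1, which activates fatty acids, from 73.3 and 58.1 to 196 and 188 CPM (1.55 ± 0.18). The groups did not overlap in these 4 genes. The enzymes that build the chain, ACACA and FASN, did not pass the test (0.12 ± 0.12 and 0.26 ± 0.19). ELOVL1 and ACSL3 rose by 0.72 ± 0.13 and 0.91 ± 0.20, while ACLY (0.44 ± 0.11) was called, but not without treated library 2 or untreated library 2, ELOVL5 (0.43 ± 0.15) was called, but not without any 1 of the 4 libraries or with upper-quartile scaling and ACSL4 (0.86 ± 0.23, but 0.52 without treated library 2) was called, but not without treated library 2 or untreated library 2. In all 9 of 11 tested members were called higher.

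Genes that export sterols, targets of the LXR receptors, did not move as one. Of 9 tested, 4 rose and 2 fell, with a median log2 fold change of 0.16. The first count was 2 without untreated library 1 or treated library 1 or with upper-quartile scaling. MYLIP, a ubiquitin ligase, fell from 13.8 and 15.4 to 6.10 and 6.55 CPM (-1.20 ± 0.27). ABCA1, the main cholesterol exporter, overlapped between the groups, at 9.10 and 7.35 CPM untreated and 3.05 and 7.95 CPM treated (-0.56 ± 0.34), and did not pass the test. ABCG1, another exporter, had 17 untreated counts and 1 treated count, a ratio of 13.7-fold (95% interval 2.15 to 574) lower, and was called, but not without treated library 1 or by DESeq2. NR1H2, which encodes LXR-beta (0.53 ± 0.20, but 0.21 without treated library 1 and 0.33 without untreated library 1), was called, but not without treated library 1 or untreated library 1, with upper-quartile scaling or in a fit of only the 4 libraries. LPCAT3 (0.46 ± 0.15, but 0.27 without untreated library 1), with 65.6% of its exon bases shared, was called, but not without treated library 1 or untreated library 1, with upper-quartile scaling or in a fit of only the 4 libraries. SMPDL3A had 2 untreated counts and a ratio of 21.1-fold (95% interval 5.40 to 181), and CES1 was described above.

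Proteins of the primary granule, made at the promyelocyte stage, were lower in treated cells. Of 15 tested, 12 fell and 1 rose, with a median log2 fold change of -1.75. MPO, myeloperoxidase, fell from 13738 and 18122 to 4234 and 5239 CPM, a change of -1.75 ± 0.22 (adjusted p = 3.57e-05). ELANE, neutrophil elastase, fell from 1454 and 1738 to 308 and 412 CPM (-2.15 ± 0.29), AZU1, azurocidin, from 469 and 583 to 128 and 114 CPM (-2.12 ± 0.26), and CTSG, cathepsin G, from 234 and 288 to 69.9 and 58.9 CPM (-2.02 ± 0.17). Every treated level of these genes was below every untreated one. The defensins DEFA1 and DEFA3, near-identical copies, had 0 treated counts. DEFA3 had 31 untreated ones and was at least 8.34-fold lower, and DEFA1 was called, but not without treated library 1 or 2 or untreated library 2. CD63, a membrane protein of lysosomes and granules, was the member that rose, from 239 and 235 to 584 and 479 CPM (1.17 ± 0.16).

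Later granule and maturation genes moved the other way in part. Of 7 tested genes of secondary and tertiary granules 5 rose, led by MMP9, gelatinase B, from 81.4 and 51.0 to 2247 and 2518 CPM (5.17 ± 0.34, adjusted p = 1.13e-07). QPCT, a glutaminyl cyclase, rose from 1.44 and 0.441 to 23.9 and 24.5 CPM (4.58 ± 0.32), and HP, haptoglobin, and FCN1, ficolin-1, rose by 2.45 ± 0.23 and 1.28 ± 0.19. ARG1 (1.45 ± 0.48) was called, but not without treated library 2 or untreated library 1 or 2, by DESeq2 or with no filter on low counts. LTF, LCN2, MMP8 and OLFM4 of the secondary granule had too few counts to test. Of 27 tested maturation genes 18 rose and 1 fell.

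S100A8 and S100A9, the subunits of calprotectin, were among the maturation genes that rose. S100A8 rose from 292 and 241 to 3593 and 3276 CPM (3.69 ± 0.20, adjusted p = 2.14e-08) and S100A9 from 468 and 446 to 6312 and 5232 CPM (3.66 ± 0.20). CEACAM3, a granulocyte receptor for bacteria, rose from 1.28 and 1.69 to 76.1 and 56.5 CPM (5.49 ± 0.30), and TREM1, which amplifies Toll-like signals, from 1.06 and 1.18 to 16.3 and 17.9 CPM (3.93 ± 0.22). ITGAM, the CD11b integrin chain used to score HL-60 differentiation, rose from 64.2 and 65.6 to 229.9 and 256 CPM (1.91 ± 0.13). ALOX5AP, the helper of 5-lipoxygenase, rose from 16.4 and 11.7 to 215 and 183 CPM (3.81 ± 0.23). The groups did not overlap in any of these 6 genes. LILRA2, the member called lower (-0.34 ± 0.12), was called, but not without treated library 2 or untreated library 1 or 2, with no filter on low counts or in a fit of only the 4 libraries. Beside these counts stand the marker sums of macrophages and lymphocytes given above, which also rose, and their part was not tested.

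All 7 tested subunits of the NADPH oxidase, the enzyme of the respiratory burst, were called higher. NCF1 (p47phox), the organizer, rose from 54.9 and 52.8 to 705 and 475 CPM (3.45 ± 0.33), with reads that may be shared with its pseudogene copies. The catalytic subunit gene CYBB (gp91phox) rose from 411 and 361 to 958 and 1040.0 CPM (1.37 ± 0.16), and the GTPase RAC2 from 387 and 413 to 1148 and 921 CPM (1.37 ± 0.19). RAC1 rose by 1.02 ± 0.13. CYBA (0.58 ± 0.21, but 0.32 without treated library 1 and 0.36 without untreated library 1) was called, but not without treated library 1 or untreated library 1 or with upper-quartile scaling, and NCF4 (0.58 ± 0.16, but 0.35 without treated library 1) was called, but not without treated library 1 or untreated library 1.

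Of 10 tested inflammasome genes 7 rose and 1 fell. CASP1, the caspase that cuts pro-IL-1beta, rose from 37.1 and 31.9 to 163 and 159 CPM (2.22 ± 0.15), and CASP4, a sensor of cytosolic lipopolysaccharide, from 30.5 and 35.6 to 85.1 and 71.0 CPM (1.24 ± 0.15). The sensors NLRC4 and MEFV rose from 14.8 and 14.2 to 60.9 and 53.1 CPM (1.97 ± 0.16) and from 1.81 and 1.32 to 10.6 and 9.69 CPM (2.66 ± 0.30), and the pyrin partner PSTPIP1 by 0.75 ± 0.13. NLRP1 was the member that fell, from 27.9 and 31.6 to 3.90 and 6.83 CPM (-2.45 ± 0.25, adjusted p = 5.76e-06). The pairs were separated in all of these genes. NLRP3 and the pore-forming GSDMD did not pass the test (0.44 ± 0.23 and -0.13 ± 0.17). The adaptor PYCARD was called higher (1.04 ± 0.19) with 59.7% of its exon bases shared.

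Receptors and factors of progenitor growth were mostly lower, 8 of 12 tested, with 3 higher. MYC, the growth regulator that is amplified in HL-60, fell from 1862 and 2372 to 751 and 847 CPM (-1.41 ± 0.17, adjusted p = 2.36e-05). FLT3 fell from 26.9 and 28.9 to 4.66 and 9.27 CPM (-1.98 ± 0.26) and MYB, chosen after its values were seen, from 266 and 237 to 71.2 and 119 CPM (-1.40 ± 0.20), both genes of early blood cells. In MYC, FLT3 and MYB both treated libraries were below both untreated ones. ERG, at under 2 CPM, fell by 2.99 ± 0.61 on the log2 scale. BCL6, a transcriptional repressor, rose from 16.9 and 19.7 to 56.7 and 54.9 CPM (1.61 ± 0.19), and ID1 (2.96 ± 0.72) was called, but not without untreated library 1.

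Factors that make ribosomes were mostly lower. Of 32 tested, 25 fell and 0 rose, with a median log2 fold change of -0.63. WDR12, of the PeBoW complex, fell from 85.3 and 72.3 to 35.6 and 40.2 CPM (-1.06 ± 0.15), POLR1B, a subunit of RNA polymerase I, from 82.5 and 85.3 to 39.8 and 45.3 CPM (-0.98 ± 0.13), and DKC1, the pseudouridine synthase, from 232 and 207 to 118 and 131 CPM (-0.82 ± 0.13). WDR43 fell by 0.88 ± 0.15 on the log2 scale. Both treated levels of these genes lay below both untreated ones. POLR3G (-1.66 ± 0.45, but -2.83 without treated library 2) was called, but not without treated library 1 or untreated library 1, and FBL, fibrillarin (-0.76 ± 0.21), was called, but not without treated library 2 or untreated library 1.

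The E-box CACGTG, the letters bound by MYC and other factors, was present in 12 of 31 promoters of this list (38.7%) and in 7.26% of all promoters of the table. It was also present in 7 of 27 promoters of the immediate early list (25.9%), of which most genes rose. UTP20, a processome factor chosen after its values were seen, shows 1 such match, in capitals, beginning 10 bases before its start, at chr12:101279855-101280104 (plus strand).
UTP20: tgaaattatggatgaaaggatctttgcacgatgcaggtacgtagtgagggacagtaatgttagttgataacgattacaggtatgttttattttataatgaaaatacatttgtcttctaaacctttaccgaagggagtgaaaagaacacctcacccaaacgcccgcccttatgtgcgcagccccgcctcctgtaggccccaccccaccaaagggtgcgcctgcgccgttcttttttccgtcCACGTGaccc
UTP20 itself fell from 41.2 and 46.0 to 28.2 and 24.8 CPM, a log2 fold change of -0.72 ± 0.15 (adjusted p = 0.00145), with no overlap between the pairs.

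Cell cycle genes were mostly higher or not called. Of 45 tested genes 28 rose and 3 fell. Of the mitosis genes 15 of 17 rose (median 0.92), and of the replication genes 6 of 14. TK1, thymidine kinase, rose from 18.0 and 18.9 to 63.7 and 52.8 CPM (1.66 ± 0.16). Among regulators CDKN1A, the inhibitor p21, rose from 2.71 and 2.72 to 109 and 89.2 CPM (5.18 ± 0.20, adjusted p = 2.97e-09), and CDKN2D, the inhibitor p19, from 4.21 and 4.78 to 35.9 and 31.6 CPM (2.91 ± 0.23). CDK6, the kinase of D cyclins, fell from 239 and 238 to 66.5 and 84.6 CPM (-1.66 ± 0.19), while its partner CCND3 rose from 50.4 and 61.5 to 325 and 289 CPM (2.46 ± 0.15). The 2 groups were separated in each of these genes. E2F2 rose by 1.85 ± 0.21.

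Genes of the BCL2 family and other survival and death genes rose in 10 of 19 tested cases and fell in 1. BCL2A1, an NF-kB target that protects myeloid cells, rose from 8.04 and 7.35 to 77.2 and 73.9 CPM (3.29 ± 0.24), and SERPINB2 from 21.3 and 18.0 to 96.2 and 113 CPM (2.41 ± 0.18). BCL2 itself fell from 66.6 and 70.7 to 23.7 and 35.1 CPM (-1.22 ± 0.20). On the side of death, BBC3 (PUMA) rose from 3.51 and 3.60 to 16.2 and 13.5 CPM (2.05 ± 0.19). The treated and untreated pairs of these 4 genes did not overlap.

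Sugar transport and glycolysis genes were higher in 17 of 21 tested cases and hypoxia genes in 7 of 9, with 0 lower. SLC2A3, the glucose transporter GLUT3, rose from 91.8 and 75.8 to 468 and 614 CPM (2.69 ± 0.17), and the hexokinases HK1 and HK3 from 13.2 and 16.1 to 77.1 and 62.3 CPM (2.25 ± 0.18) and from 75.6 and 70.6 to 284 and 270.3 CPM (1.92 ± 0.19). PFKFB4 rose from 12.3 and 7.79 to 46.1 and 55.0 CPM (2.32 ± 0.23). ENO2 rose by 2.94 ± 0.39, and the hormone gene ADM by 1.88 ± 0.17. PKM and GAPDH, enzymes of the lower pathway, rose by 1.21 ± 0.14 and 0.72 ± 0.16. The pairs did not overlap in any of these genes.

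Few nuclear genes of the respiratory chain were called: of 26 tested, 3 were called higher and 3 lower, against 42.6% of all tested genes in either direction, and the median log2 fold change was 0.07. The count of lower genes was 5 without untreated library 2 or with upper-quartile scaling and 1 without untreated library 1, and the median changed sign with upper-quartile scaling and without treated library 1. NDUFA10 of complex I fell from 103 and 99.3 to 64.4 and 69.1 CPM (-0.60 ± 0.12). The other calls were less firm. NDUFA1 (0.69 ± 0.20, but 0.36 without treated library 1) was called, but not without treated library 1 or untreated library 1, NDUFA4 (1.03 ± 0.27) was called, but not without treated library 2 or untreated library 2 and NDUFB3 (0.44 ± 0.15) was called, but not without any 1 of the 4 libraries or with upper-quartile scaling. NDUFS1 (-0.48 ± 0.13) was called, but not without untreated library 1, and UQCRC2 of complex III (-0.43 ± 0.12) was called, but not without treated library 2 or untreated library 1.

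Stress genes were taken by arm. Of 13 tested chaperones and sensors of the endoplasmic reticulum 5 fell and 0 rose, and the first count was 3 without untreated library 1 or 2 or treated library 2 and 2 without treated library 1. HSP90B1 fell from 1209 and 1182 to 641 and 798 CPM (-0.73 ± 0.18) and PDIA6 from 341 and 284 to 166 and 215 CPM (-0.72 ± 0.16). Of 13 tested genes of the amino acid and integrated stress response 6 rose. SLC7A11, the cystine importer, rose from 15.0 and 8.74 to 78.3 and 84.8 CPM (2.77 ± 0.30), and TRIB3 from 34.7 and 34.8 to 70.9 and 61.1 CPM (0.92 ± 0.17). CHAC1 and SESN2 rose by 3.59 ± 0.46 and 1.04 ± 0.19. All treated values of the named genes lay on 1 side of the untreated values.

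Antioxidant and iron genes rose in 9 of 16 tested cases and fell in 2. HMOX1, heme oxygenase, rose from 1.22 and 1.62 to 14.1 and 17.7 CPM (3.50 ± 0.39), and NQO1 from 3.83 and 4.19 to 33.5 and 21.2 CPM (2.77 ± 0.29). SLC11A1, a metal transporter of phagosomes, rose from 15.4 and 17.9 to 68.4 and 73.8 CPM (2.1 ± 0.31). SLC40A1, the iron exporter ferroportin, was low and fell from 2.45 and 2.35 to 0.169 and 0.837 CPM (-2.16 ± 0.48, but -3.75 without treated library 2). Groups did not overlap in these 4 genes. FTH1, the ferritin heavy chain, was listed at 479.6 and 412 CPM untreated and 15565 and 9765 CPM treated (4.83 ± 0.26), but 62.4% of its exon bases are shared with another gene and it has many processed copies, so this value is uncertain.

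Of 7 tested metallothionein and zinc genes 4 rose and 1 fell, and the first count was 2 without untreated library 1. MT2A, a metal-binding protein, rose from 12.3 and 13.1 to 107 and 89.9 CPM (2.96 ± 0.64), and MT1F from 0.319 and 0.441 to 24.8 and 20.3 CPM (5.88 ± 0.37). The importer SLC39A14 fell from 16.7 and 18.1 to 3.98 and 8.85 CPM (-1.42 ± 0.29). Metallothionein copies are alike in sequence, so their counts are uncertain, and MT1G was called, but not without untreated library 1 and MT1X called, but not without treated library 1 or untreated library 1.

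Mediator, protease and adhesion genes closed the picture at this time. Of 12 tested enzymes of lipid mediators 6 rose and 2 fell: PTGS1 and PTGS2, the cyclooxygenases, rose from 61.0 and 57.5 to 209 and 158 CPM (1.63 ± 0.20) and from 3.67 and 2.64 to 12.3 and 18.0 CPM (2.24 ± 0.34). TBXAS1, thromboxane synthase, rose by 1.18 ± 0.14. LTC4S, which makes cysteinyl leukotrienes, was called lower (-1.53 ± 0.40, but -2.40 without treated library 1 and -0.97 without treated library 2) and was called, but not without treated library 2 or untreated library 1. In tryptophan and arginine breakdown KMO rose from 2.34 and 1.91 to 23.1 and 16.3 CPM (3.19 ± 0.32), SAT1 rose by 1.60 ± 0.22, and ODC1, ornithine decarboxylase, fell from 277 and 312 to 142 and 179.6 CPM (-0.87 ± 0.19). The groups were apart in all of these genes.

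Among complement and coagulation genes 9 of 12 tested rose. THBS1, thrombospondin-1, rose from 1.38 and 5.36 to 72.0 and 61.3 CPM (4.38 ± 0.48), PLAUR, the urokinase receptor, from 27.0 and 21.7 to 204 and 181 CPM (2.98 ± 0.22), and complement C3 from 27.4 and 29.3 to 240.0 and 164 CPM (2.83 ± 0.20). C1QA, a chain of the complement starter C1q, rose from 0.160 and 0.294 to 6.61 and 5.16 CPM (4.69 ± 0.47), while its partner chains C1QB and C1QC were too low to test. Of 13 tested matrix proteases and their inhibitors 12 rose. Beside MMP9 these were led by ADAMDEC1, from 1.54 and 0.441 to 47.5 and 42.0 CPM (5.38 ± 0.38), MMP19, from 0.905 and 0.514 to 18.8 and 21.5 CPM (4.76 ± 0.59), and MMP14, from 2.66 and 3.38 to 73.3 and 58.1 CPM (4.45 ± 0.33). TIMP1, an inhibitor of these enzymes, rose by 1.72 ± 0.21. In each the treated pair was above the untreated pair.

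Of 12 tested adhesion genes 9 rose and 1 fell. ITGB8, an integrin chain, rose from 0.319 and 0.294 to 4.23 and 5.02 CPM (3.87 ± 0.74), and NINJ1, which ruptures the membrane of dying cells, from 45.4 and 49.0 to 220.3 and 151 CPM (1.97 ± 0.21). ITGA4, a chain of VLA-4, fell from 458 and 386 to 139 and 238 CPM (-1.16 ± 0.25). ITGAL (1.13 ± 0.26) was called, but not without treated library 1. Some genes of other lineages rose beside these. FSCN1, fascin of dendritic cells, rose from 13.7 and 13 to 304 and 211 CPM (4.27 ± 0.32). NKG7, a protein of cytotoxic granules, rose from 10.3 and 9.18 to 292 and 211 CPM (4.68 ± 0.21). CLEC10A rose from 0.905 and 0.735 to 19.9 and 12.8 CPM (4.28 ± 0.40). CSF1R, the macrophage growth receptor, rose from 23.3 and 22.6 to 116 and 137 CPM (2.46 ± 0.21). Other markers of these lineages were mixed, and some did not rise. Of 9 tested genes of the longer macrophage list 8 were called higher. Of 8 tested dendritic genes 6 were called higher, but CD1C stood at 6.71 and 7.42 CPM untreated and 6.86 and 3.97 CPM treated. CLEC9A, CD3D and CD8A were at 0, and 7 of 9 macrophage markers stayed under 1 CPM.

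Of 18 genes often used as internal references, 5 were called higher, a share near the 23.6% of all tested genes, and 1 lower. The first count was 3 without untreated library 2, and the second was 3 without untreated library 2 or with RLE scaling and 6 with upper-quartile scaling and 0 without untreated library 1 or treated library 1 and 2 without treated library 2. ACTB, PGK1 and GAPDH rose, by 1.51 ± 0.16, 0.98 ± 0.15 and 0.72 ± 0.16. YWHAZ (0.53 ± 0.18, but 0.34 without treated library 2) was called, but not without treated library 2 or untreated library 2 or with upper-quartile scaling.

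**Figure D4:**
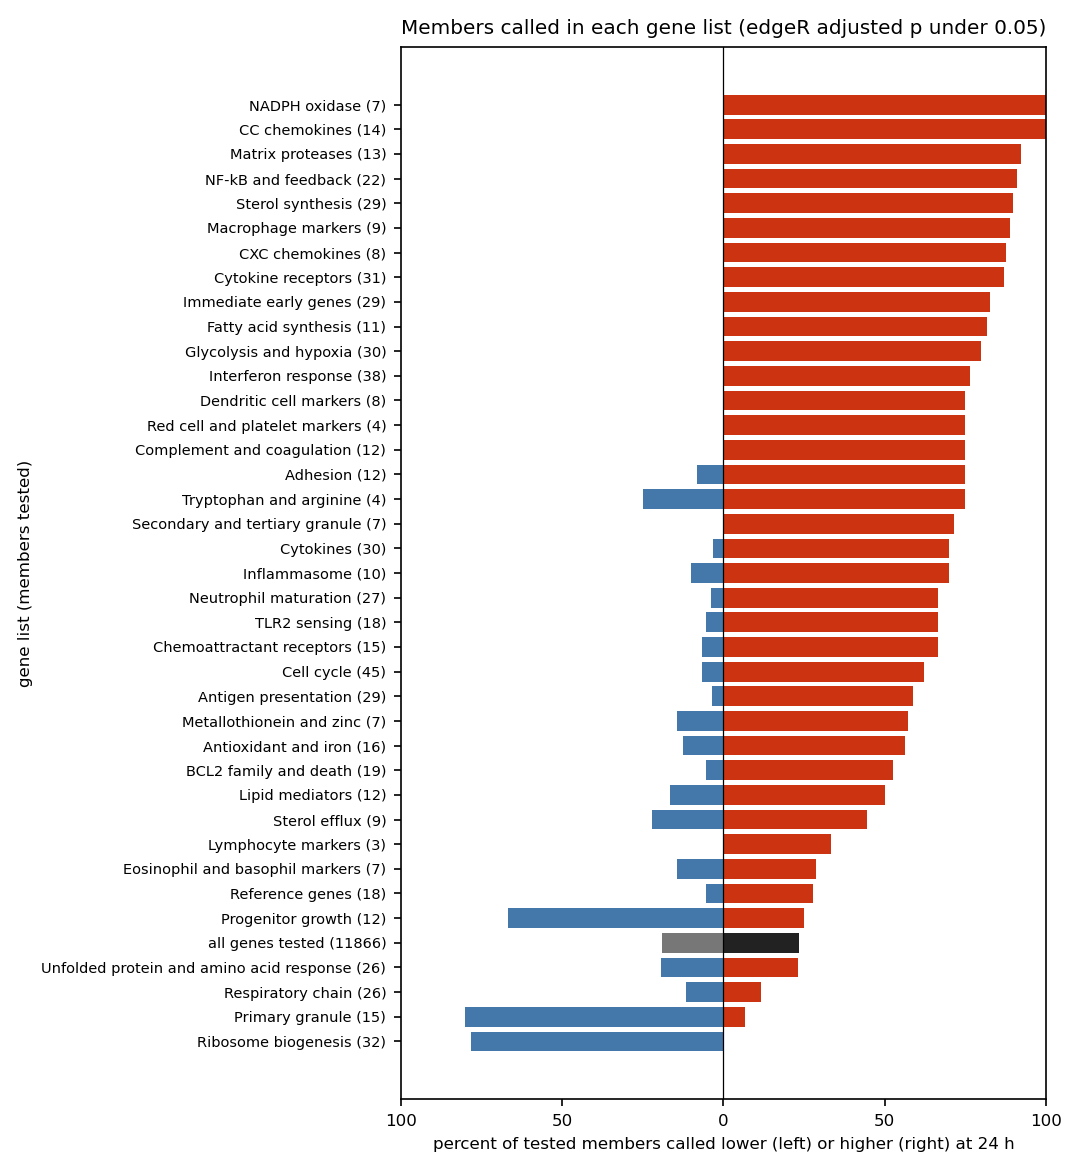
For each gene list, the percent of its tested members called higher (right) or lower (left) in cells given 10 µg/ml LTA for 24 h, with the number tested in brackets and all genes tested in black and grey. The CC chemokine and NADPH oxidase lists reach 100% higher, the primary granule and ribosome biogenesis lists point to the lower side, and all genes tested stand at 23.6% higher and 19% lower.

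The high dose was set beside 1 µg/ml at the same time to show where it differed. The 2 doses differed in 453 of the tested genes (3.82%), of which 359 were higher at 10 µg/ml (3.03%) and 94 lower (0.792%). These counts leaned on single libraries. Without library 1 of 10 µg/ml 71 genes were higher and 2 lower, and without library 2 of 10 µg/ml 390 and 272. Without library 1 of 1 µg/ml they were 170 and 21, and without library 2 of 1 µg/ml 45 and 4. This comparison shares its 10 µg/ml libraries with the one against untreated cells.

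Members of several lists were higher at the high dose. Of the CC chemokines 9 of 14 were higher at 10 than at 1 µg/ml, and 2 without 1 µg/ml library 2 and 5 without 10 µg/ml library 1. Of the CXC chemokines 5 of 8 were higher at 10 than at 1 µg/ml, and 0 without 1 µg/ml library 2 and 3 without 10 µg/ml library 1. Of the sterol genes 12 of 29 were higher at 10 than at 1 µg/ml, and 7 without 1 µg/ml library 1 or 10 µg/ml library 1. Of the neutrophil maturation genes 9 of 27 were higher at 10 than at 1 µg/ml, and 5 without 1 µg/ml library 1 and 1 without 1 µg/ml library 2 and 3 without 10 µg/ml library 1. Of the NF-kB list 8 of 22 were higher at 10 than at 1 µg/ml, and 5 without 1 µg/ml library 1 and 0 without 1 µg/ml library 2 and 1 without 10 µg/ml library 1. Their median differences were 1.99, 1.48, 0.85, 0.60 and 0.72 on the log2 scale, against 0.0017 over all tested genes. No tested member of the respiratory chain (26), primary granule (15) or reference (18) lists was called in this comparison. With 3.82% of all tested genes called, lists of this size would hold few or none, so this does not set them apart.

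The first of the 10 largest rises with dose was CCL20, an attractant of immature dendritic cells, at 0.734 and 0.393 CPM under 1 µg/ml and 7.96 and 4.04 CPM under 10 µg/ml, a log2 difference of 3.39 ± 0.47 (adjusted p = 0.00192), called, but not without 1 µg/ml library 2. IL1B stood at 105 and 79.5 CPM and 528 and 425 CPM, a difference of 2.37 ± 0.31 (adjusted p = 0.0013). CCL7 stood at 3.23 and 4.06 CPM and 16.2 and 22 CPM, a difference of 2.38 ± 0.21. The 10 µg/ml pair lay above the 1 µg/ml pair in these 3 genes. ADGRG3, an adhesion receptor of granulocytes, differed by 2.80 ± 0.30, UPB1, a ureidopropionase, by 2.60 ± 0.25 and SERPINB9 by 2.52 ± 0.35. CCL3 (2.54 ± 0.41) and G0S2, an inhibitor of lipolysis (2.48 ± 0.40), were called, but not without 1 µg/ml library 2. CCL1 (2.61 ± 0.43) and SLAMF7 (2.35 ± 0.44) were called, but not without 10 µg/ml library 1 or 1 µg/ml library 2. Among list members, TREM1 stood at 3.30 and 4.26 CPM and 16.3 and 17.9 CPM (2.17 ± 0.19), CD14 at 564 and 615 CPM and 1375 and 1232 CPM (1.14 ± 0.15), and FDPS at 202 and 219 CPM and 600.0 and 510.4 CPM (1.40 ± 0.14, adjusted p = 2.51e-04). TM7SF2 stood at 13.9 and 17.5 CPM untreated, 11.4 and 15.9 CPM at 1 µg/ml and 42.5 and 36.9 CPM at 10 µg/ml (1.53 ± 0.20), so that only the high dose lay apart. For JAK3 the difference of 0.39 ± 0.19 did not pass the test, with 48.6 and 41.6 CPM at 1 µg/ml and 61.5 and 57.0 CPM at 10 µg/ml.

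ABCA1 led the genes that were lower at the high dose. It stood at 23.2 and 27.2 CPM under 1 µg/ml and 3.05 and 7.95 CPM under 10 µg/ml, a log2 difference of -2.17 ± 0.33 (adjusted p = 0.00334), and the call held without each library in turn. The untreated levels of 9.10 and 7.35 CPM lay between those of the 2 doses or within the 10 µg/ml pair. The other large falls rested on single libraries. F13A1, coagulation factor XIII A (-1.84 ± 0.44, but -0.97 without 1 µg/ml library 2), was called, but not without 10 µg/ml library 1 or 1 µg/ml library 2. KIT (-1.28 ± 0.21) was called, but not without 10 µg/ml library 1, and ALDH5A1, a mitochondrial dehydrogenase (-1.22 ± 0.18), was called, but not without 1 µg/ml library 2. WDR35, a protein of ciliary transport (-1.16 ± 0.20), was called, but not without 10 µg/ml library 1 or 1 µg/ml library 2. DPY19L2P2 (-1.37 ± 0.29), PKD1P6 (-1.22 ± 0.25), CFAP97 (-1.22 ± 0.23) and NLRP1 (-1.15 ± 0.26) were called, but not without 10 µg/ml library 1 or 1 µg/ml library 1 or 2. KANK1 (-1.23 ± 0.28) was called, but not without any 1 of the 4 libraries, and DPY19L2P2 and PKD1P6 are pseudogenes, whose reads may be shared with their parent genes.

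**Figure D5:**
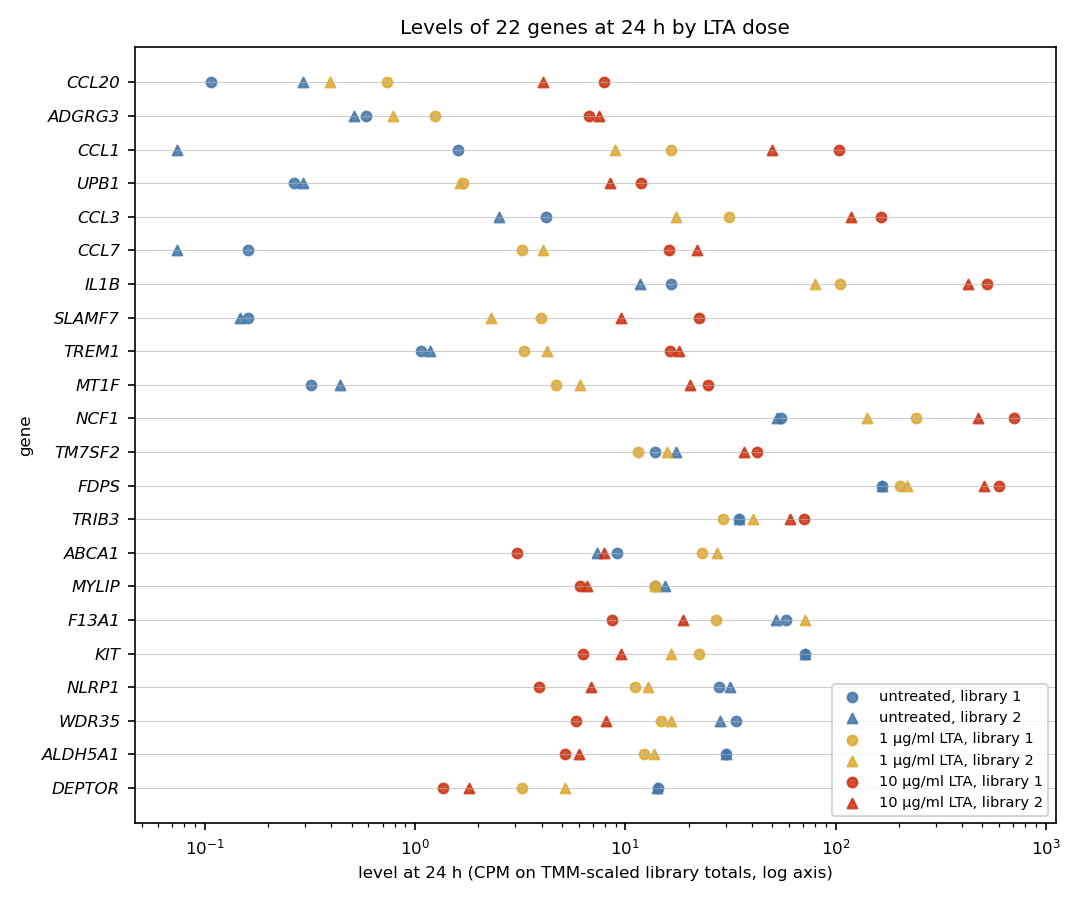
Levels of 22 genes at 24 h in untreated cells and at 1 and 10 µg/ml LTA, with CPM on a log axis, circles for library 1 and triangles for library 2. IL1B and CCL3 rise with dose and KIT and NLRP1 fall, while ABCA1 is highest at 1 µg/ml, at 23.2 and 27.2 CPM.

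The late response was then set against the response to the same dose at 4 h, as a difference of log2 fold changes. It differed in 4001 genes (33.7%), 2339 with a higher value at 24 h (19.7%) and 1662 with a lower one (14%). Without untreated library 1 of 24 h the second count was 1049, and without library 1 of 10 µg/ml at 4 h it was 1063. This comparison shares its 24 h libraries with the main one.

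Interferon, maturation and receptor genes had the higher late values. Of the interferon list 25 of 38 were higher at 24 h and 2 lower, with a median log2 fold change of -0.15 at 4 h and 1.28 at 24 h. Of the neutrophil maturation list 19 of 27 were higher and 1 lower (medians -0.24 and 1.81), and of the chemoattractant receptors 10 of 15 (medians 0.29 and 1.90). The primary granule list went the other way, with 8 of 15 lower and 1 higher (medians -0.08 and -1.75). Cytokines were lower at 24 h in 6 of 30 cases and higher in 3, and the first count was smaller without 24 h untreated library 1. Over all tested genes 14% were lower and 19.7% higher, so these counts do not set the cytokine list apart.

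S100B, a calcium-binding protein, was among the 10 largest gains from 4 to 24 h. Its log2 fold change was -0.94 ± 0.31 at 4 h and 4.75 ± 0.24 at 24 h, a difference of 5.69 ± 0.39 (adjusted p = 7.20e-07), with 8.78 and 7.86 CPM untreated and 278 and 172 CPM treated at 24 h. The fractalkine receptor CX3CR1 went from -0.68 ± 0.57 to 5.70 ± 0.43 and the inhibitory receptor LILRB1 from -1.85 ± 0.51 to 4.57 ± 0.40. GPRIN3, VWA1, MT1F and the motor protein KIFC3 had differences of 7.63 ± 0.76, 6.33 ± 0.77, 6.01 ± 0.51 and 5.58 ± 0.60. DAB2, an endocytic adaptor (6.78 ± 0.86, but 10.74 without 4 h treated library 2), and SLC45A3 (5.96 ± 1.17, but 9.92 without 4 h treated library 2) had no count in 1 treated library of 4 h. HBB had 0 counts in untreated libraries of 24 h, so its fitted difference is not given.

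Among the list members, CSF1R went from -2.50 ± 0.23 at 4 h to 2.46 ± 0.21 at 24 h, a difference of 4.97 ± 0.31 (adjusted p = 3.95e-07). FPR1 went from 0.29 ± 0.18 to 3.83 ± 0.20, S100A9 from 0.23 ± 0.18 to 3.66 ± 0.20, FADS2 from -0.15 ± 0.29 to 3.55 ± 0.30 and CCND3 from 0.29 ± 0.14 to 2.46 ± 0.15. These 4 genes had not been called at 4 h. The interferon genes IFIT3 and IFITM1, chosen after their values were seen, went from -1.54 ± 0.41 to 2.41 ± 0.40 and from -1.65 ± 0.43 to 2.93 ± 0.30, with differences of 3.95 ± 0.58 and 4.58 ± 0.52.

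Lower late values were found in other genes. MIR155HG, the host transcript of miR-155, went from 6.49 ± 0.38 at 4 h to -0.15 ± 0.57 at 24 h, a difference of -6.64 ± 0.72 (adjusted p = 2.52e-05). INHBA, a subunit of activin (-6.08 ± 1.52, but -9.98 without 4 h untreated library 2), and ELOVL7, an elongase (-5.64 ± 0.83), were also lower, as were SH2D3A (-4.25 ± 0.58), MAN1A1 (-4.18 ± 0.61), TPPP (-3.85 ± 0.49) and PLD4 (-4.58 ± 0.56). IL12B, a subunit of interleukins 12 and 23 (-4.29 ± 1.46, but -1.51 without 24 h untreated library 1), was called, but not without 24 h treated library 1 or 24 h untreated library 1 or 4 h treated library 1 or 4 h untreated library 1. CTDSPL (-3.95 ± 1.38, but -7.88 without 4 h untreated library 1) was called, but not without 24 h treated library 1 or 24 h untreated library 1 or 2 or 4 h treated library 1 or 2 or 4 h untreated library 2, and CFAP46 (-3.80 ± 1.32) was called, but not without 24 h treated library 1 or 2 or 24 h untreated library 1 or 2 or 4 h treated library 1 or 2 or 4 h untreated library 1, with upper-quartile scaling or with no filter on low counts. CDK6 went from 0.80 ± 0.19 to -1.66 ± 0.19 (-2.45 ± 0.27), LYZ, lysozyme, from 0.52 ± 0.16 to -1.07 ± 0.16 (-1.59 ± 0.22), and MPO from -0.30 ± 0.22 to -1.75 ± 0.22 (-1.45 ± 0.31). CCND1, cyclin D1, chosen after its values were seen, went from 2.69 ± 0.15 to -1.0 ± 0.15 (-3.69 ± 0.21).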

How the data were processed

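RNA of human HL-60 cells was sequenced in 16 libraries made with a stranded mRNA kit, per the labels' protocols. The authors deposited raw read counts per gene symbol, unnormalized. The submitters' processing notes list the build GRCh38 and the tools featureCounts 2.0.1, HISAT2 2.1.0, fastp 0.20.0, edgeR 3.36.0 and DESeq2 1.28.0. The sources used here do not give the strand setting of the counting, so reads of overlapping or antisense genes may be mixed.

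All 12 dHL-60 libraries were fitted together with edgeR 4.0.16 (R 4.3.3): TMM factors, filterByExpr with a minimum count of 10 (11866 of 23575 symbols kept), quasi-likelihood F tests and Benjamini-Hochberg adjustment over all genes kept, with calls at an adjusted p under 0.05. The time comparison was an interaction term. Intervals of ratios with 1 to 3 counts are exact binomial and, as the floor of 3 counts, cover counting error only. On simulated counts of 11748 genes the fit recovered 92 of 100 genes changed 2-fold and 100 of 100 changed 4-fold. These were changes in the comparison with untreated cells, with 11 calls among 11548 unchanged genes. The changed genes had at least 5 CPM untreated and went up and down in equal number, with the spread taken from the fit itself. In the data 42.6% of genes were called and many named genes started near 0, so these rates may not carry over.

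Groups came from the labels. Alternatives were DESeq2 1.42.0, other scalings and filters, a replicate block, the 4 libraries alone and each library left out. The crossed block and the list counts under scalings and left-out libraries were chosen after seeing the data. Members and gene lists were chosen with earlier results of these data known. Named genes were 12 receptors, markers and effectors, and the largest called changes of each comparison among genes of at least 5 CPM. Against untreated cells these changes were also limited to genes whose pairs did not overlap. Further named genes were the called genes of highest CPM and, of each list, the called members that changed most and the steps of its pathway. Where another gene is named, the text says so; a few list members are counted but not reported here by name. Promoters and coordinates are from RefSeq (GRCh38.p14), matched by symbol.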

Additional observations from a re-analysis of the deposited data

Results flagged for a closer look

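The response to 10 µg/ml LTA was not the same at both times. By the test of the difference itself, 2339 genes had a higher response at 24 h than at 4 h and 1662 a lower one. 

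For 11 of the genes named in the time comparison the response was called at both times and had opposite signs. Many genes of that comparison were named for a large difference between the times or after their values were seen, which favours opposite signs. The share over all tested genes was not counted, so the number does not show how common such genes were. The difference between the log2 fold changes of 24 h and 4 h was 7.63 for GPRIN3, 6.78 for DAB2, 6.33 for VWA1, 5.96 for SLC45A3, 5.69 for S100B and 4.97 for CSF1R, all below untreated levels at 4 h and above them at 24 h. DAB2 and SLC45A3 had no count in 1 treated library of 4 h. It was 4.58 for IFITM1 and 3.95 for IFIT3, in the same direction. IFITM1, IFIT3 and CCND1 were chosen after their values were seen. It was -3.69 for CCND1, -2.45 for CDK6 and -1.59 for LYZ, which were above untreated levels at 4 h and below them at 24 h.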

How the results depend on the processing

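No called change of a named gene reversed its direction under any alternative run. Of the counts of called genes, those against untreated cells stayed within 1.5 times under every scaling, filter, tool and block. Their balance did change: upper-quartile scaling gave 2484 higher and 2694 lower genes, where the main run gave 2797 and 2259. The counts against 1 µg/ml were less stable: 553 higher and 200 lower genes by DESeq2, 771 and 583 with no filter on low counts, and 571 and 229 with only the 4 libraries compared, where the cause was not tested. The replicate numbers were not taken to pair the samples, since not every pair of groups correlated above 0.1: over 15 pairs the correlation of same-numbered deviations ran from -0.204 to 0.383, with 5 above 0.1, among them all pairs of 4 h groups, and 3 below -0.1. With the replicate block, 2841 genes were higher and 2349 lower than untreated, 509 higher and 154 lower than at 1 µg/ml, and 2407 higher and 1763 lower than at 4 h. With the numbers of the untreated 24 h pair exchanged, an alternative chosen after seeing the data, these counts were 3050 and 2553, 726 and 360, and 2612 and 2027.

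With 1 library left out at a time, the lone library is assumed to vary like the other groups. Genes higher than untreated then ranged from 1894 to 2459 and lower ones from 1470 to 2010. Genes higher than at 1 µg/ml ranged from 45 to 390 and lower ones from 2 to 272. Genes higher than at 4 h ranged from 1597 to 2314 and lower ones from 1049 to 1741. Counts near 0 limit the fold changes of low genes.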
